A study of Homo sapiens with 4 samples.

Results

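This section follows 8 messages that earlier work described as substrates of NSUN2 (HDGF, GRB2, IRF3, LRRC8A, QSOX1, MYC, CCND1 and CDKN1A) through RNA immunoprecipitation with an antibody against that enzyme. The messages were chosen by gene symbol, with earlier results of these data known, and all 8 were found among the 24483 genes of the expression table. They also had 28 of the 48104 regions of the lactate peak list and 46 of the 95785 regions of the vehicle peak list. The cells were PANC-1, an established line from a human pancreatic ductal adenocarcinoma. The groups were the immunoprecipitate (IP) and the input RNA of cells kept for 24 h in 30 mM sodium lactate, and the IP and the input of cells given the water vehicle for the same time. All groups share the same line and medium, and each was a single library, 4 in all. No difference here has a replicate error, no test was made, and every interval covers counting error only. No library made with a control antibody was analysed here, so RNA bound by NSUN2 cannot be told apart from RNA that the beads carried along.

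NSUN2 is a methyltransferase that places 5-methylcytosine (m5C) on transfer RNA, on vault RNA and on a set of messenger RNAs. Proteins that recognise m5C, among them ALYREF, an export factor, and YBX1, which can stabilise marked messages, then act on the methylated message. Immunoprecipitation of the enzyme reports which RNA came down with it and does not measure m5C itself.

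Gene levels were deposited as FPKM, fragments scaled to gene length and library total. Recovered library totals were 15189967 reads in the lactate IP, 11175432 in the lactate input, 13620414 in the vehicle IP and 17626197 in the vehicle input. Nuclear genes had 13.9% of the lactate IP, 20.9% of the lactate input, 30.3% of the vehicle IP and 31.3% of the vehicle input. The mitochondrial ribosomal RNA MT-RNR2 took 83.7%, 55.1%, 68.0% and 41.0% of the reads in the same order. A larger mitochondrial share lowers the FPKM of every nuclear gene, so each value for a message is read beside the median over all genes. Of 9 markers of epithelial and PANC-1 cells, 6 reached FPKM 1 in each library (KRT8, KRT18, KRT19, SOX9 and VIM in all of them), while CDH1 was at most 0.121 and KRT7 at most 0.808. Their summed FPKM was 181 in the lactate IP, 247 in the lactate input, 529 in the vehicle IP and 401 in the vehicle input. Of 18 markers of other cell types, 1 or 2 reached FPKM 1 in a library, and their summed FPKM was 2.07, 2.46, 3.14 and 3.15 in the same order.

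HDGF, a heparin-binding growth factor, was the most abundant of the messages in both IP libraries. Its FPKM was 16.2 in the lactate IP and 7.72 in the lactate input, and 37.6 in the vehicle IP and 10.2 in the vehicle input. These values rest on 906, 317, 1882 and 658 reads. HDGF was thus higher in the IP than in the input of the same cells under both conditions. The log2 ratio of IP over input, without a pseudocount, was 1.07 in lactate cells (95% interval 0.89 to 1.26) and 1.89 in vehicle cells (1.76 to 2.02).

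GRB2 is an adaptor protein that links activated receptor tyrosine kinases to RAS signalling. Its FPKM was 7.18 in the lactate IP and 2.24 in the lactate input, and 13.1 in the vehicle IP and 4.03 in the vehicle input (514, 118, 843 and 335 reads). The log2 ratio of IP over input was 1.68 in lactate cells (95% interval 1.39 to 1.98) and 1.70 in vehicle cells (1.52 to 1.89). GRB2 was higher in the IP of both kinds of cell, and the interval of either ratio holds the other ratio.

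IRF3, a transcription factor of the antiviral interferon response, was low in both inputs. Its FPKM was 2.92 in the lactate IP and 0.660 in the lactate input, and 4.82 in the vehicle IP and 0.703 in the vehicle input. The reads behind these values were 168, 28, 249 and 47. The log2 ratio of IP over input was 2.14 in lactate cells (95% interval 1.56 to 2.77) and 2.78 in vehicle cells (2.32 to 3.26), so that the intervals of the conditions overlap.

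LRRC8A, the required subunit of the volume-regulated anion channel, had FPKM 1.67 in the lactate IP and 0.498 in the lactate input, and 4.65 in the vehicle IP and 0.599 in the vehicle input (132, 29, 330 and 55 reads). Its log2 ratio of IP over input was 1.74 in lactate cells (95% interval 1.16 to 2.38) and 2.96 in vehicle cells (2.54 to 3.40). The vehicle value was the highest of the 8 messages in vehicle cells, with an interval that overlaps those of IRF3 and QSOX1. QSOX1, a sulfhydryl oxidase of the secretory pathway that forms disulfide bonds, had FPKM 2.14 and 0.309 in the lactate IP and input, and 3.47 and 0.599 in the vehicle IP and input (301, 32, 439 and 98 reads). Its log2 ratio was 2.79 in lactate cells (2.26 to 3.36), the highest of the 8 there, and 2.54 in vehicle cells (2.22 to 2.87). The QSOX1 interval in lactate cells overlaps those of IRF3, LRRC8A and MYC.

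CCND1 encodes cyclin D1, which activates the kinases CDK4 and CDK6 in the G1 phase of the cell cycle. Its FPKM was 13.3 in the lactate IP and 7.76 in the lactate input, and 23.0 in the vehicle IP and 9.24 in the vehicle input (963, 413, 1491 and 775 reads). The log2 ratio of IP over input was 0.78 in lactate cells (95% interval 0.61 to 0.95) and 1.32 in vehicle cells (1.19 to 1.44). CCND1 was higher in the IP in both, by less than most of the other messages.

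CDKN1A encodes p21, an inhibitor of cyclin-dependent kinases. Its FPKM was 3.08 in the lactate IP and 1.37 in the lactate input, and 4.04 in the vehicle IP and 2.75 in the vehicle input (140, 46, 165 and 145 reads). The log2 ratio was 1.16 in lactate cells (95% interval 0.67 to 1.68) and 0.56 in vehicle cells (0.23 to 0.89). In vehicle cells CDKN1A stood close to the middle of all genes, of which 49.6% were below it.

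MYC, a transcription factor of cell growth, was the message that stood apart. Its FPKM was 0.574 in the lactate IP and 0.215 in the lactate input, against 0.0480 in the vehicle IP and 1.39 in the vehicle input, on 40, 11, 3 and 112 reads. MYC was thus lower in the IP than in the input of vehicle cells and higher in the IP than in the input of lactate cells. Its log2 ratio of IP over input was 1.42 in lactate cells (95% interval 0.43 to 2.53) and −4.85 in vehicle cells (−7.15 to −3.27). The vehicle IP value rests on 3 reads and the lactate input value on 11.

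**Figure D1:**
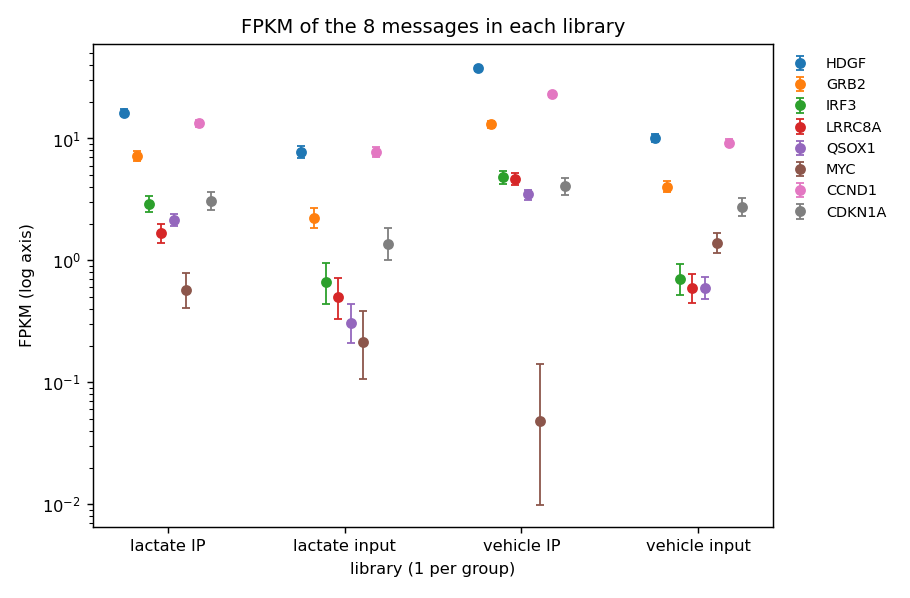
FPKM of the 8 messages on a log axis, in the lactate IP, lactate input, vehicle IP and vehicle input (1 library each), with bars for the 95% Poisson interval of the recovered reads. HDGF leads both IP libraries at 16.2 and 37.6, and MYC falls to 0.0480 in the vehicle IP.

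Within a library, FPKM is per length, so the levels of the messages can be ordered. In the lactate IP the order was HDGF, CCND1, GRB2, CDKN1A, IRF3, QSOX1, LRRC8A and MYC, and the 95% Poisson intervals overlapped between CDKN1A and IRF3 and between QSOX1 and LRRC8A. In the vehicle IP, HDGF, CCND1 and GRB2 again led, and the intervals of IRF3, LRRC8A, CDKN1A and QSOX1 overlapped from each to the next. In the lactate input CCND1 and HDGF could not be ordered at this depth, nor could IRF3, LRRC8A, QSOX1 and MYC from each to the next. In the vehicle input HDGF and CCND1 overlapped, and MYC came after HDGF, CCND1, GRB2 and CDKN1A and above IRF3, QSOX1 and LRRC8A.

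**Figure D2:**
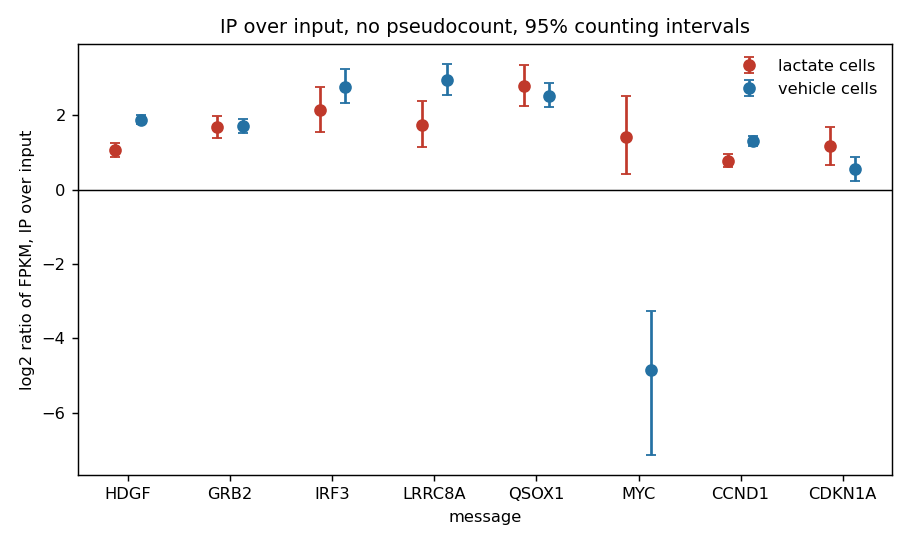
Log2 ratio of FPKM in the IP over its input for each message, without a pseudocount, for lactate cells (left point of each pair) and vehicle cells, with 95% counting intervals. All points lie above 0 except MYC in vehicle cells, at −4.85.

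To set the messages against all genes, log2 ratios of FPKM + 1 were taken over every gene that reached FPKM 1 in either library of a pair. This scale understates the change of low genes. In lactate cells, 7 of the 8 messages entered, and 3 (GRB2, QSOX1 and IRF3) were at least 2-fold higher in the IP, beside 16.0% of 7170 genes, while 0 were at least 2-fold lower, beside 23.3%. Their median log2 ratio was 0.98, against −0.10 over all genes. In vehicle cells, 6 of 8 (LRRC8A, HDGF, IRF3, GRB2, QSOX1 and CCND1) were at least 2-fold higher, beside 27.6% of 9099 genes, and MYC was at least 2-fold lower, beside 15.3%. The median over the 8 was 1.49, against 0.44 over all genes. IRF3, LRRC8A and QSOX1 entered both comparisons only through the IP, since their inputs were under FPKM 1, and MYC entered only through the vehicle input. The direction of these 4 was thus fixed by the filter, and the counts and medians that include them are a description. Among the other 4, whose inputs reached FPKM 1, HDGF stood above 83.5% of genes in lactate cells and 94.3% in vehicle cells, and GRB2 above 93.2% and 88.9%. CCND1 stood above 73.9% of genes in lactate cells and 81.8% in vehicle cells, and CDKN1A above 76.7% and 49.6%.

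Lactate and vehicle were then compared directly. In the inputs, which report the RNA before IP, 0 of 5 messages that entered were at least 2-fold higher with lactate, beside 1.76% of 6766 genes, and 0 were at least 2-fold lower, beside 6.46%. On the log2 scale of FPKM + 1 they lay between −0.97 (MYC) and −0.22 (CCND1), with a median of −0.64 against −0.43 over all genes. Fewer cells carrying a message and less of it per cell cannot be told apart in bulk RNA. Without a pseudocount, the input log2 ratio of lactate over vehicle was −2.69 for MYC (95% interval −3.73 to −1.80), −0.999 for CDKN1A (−1.51 to −0.51) and −0.85 for GRB2 (−1.16 to −0.54). It was −0.40 for HDGF (−0.59 to −0.20) and −0.25 for CCND1 (−0.43 to −0.08), which turned positive under both other scalings of FPKM. On the FPKM + 1 scale GRB2, CDKN1A and MYC stayed negative under these scalings but moved up. GRB2 stood at −0.64 as deposited, −0.19 with median-ratio scaling and −0.20 per nuclear reads. CDKN1A stood at −0.66, −0.26 and −0.27, and MYC at −0.97, −0.75 and −0.71. MYC had passed the filter only through the vehicle input, so that its lower value in the lactate input was fixed by the filter. IRF3, LRRC8A and QSOX1 did not enter, being under FPKM 1 in both inputs. Without a pseudocount they stood at −0.09 (95% interval −0.82 to 0.62), −0.27 (−0.97 to 0.41) and −0.96 (−1.58 to −0.37).

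Between the IP libraries, 2 of 7 messages (HDGF and LRRC8A) were at least 2-fold lower with lactate, beside 27.7% of 8366 genes, and 0 were at least 2-fold higher, beside 1.64%. The median of the messages was −0.74, the same to 2 decimals as that over all genes. The share of lower messages, 2 of 7, is close to that of all genes. Without a pseudocount, HDGF stood at −1.21 (95% interval −1.33 to −1.10) and LRRC8A at −1.48 (−1.78 to −1.18), and CDKN1A was least low at −0.39 (−0.73 to −0.06). Neither call held under another scaling of FPKM. On the FPKM + 1 scale HDGF stood at −1.16 as deposited, −0.08 with median-ratio scaling and −0.09 per nuclear reads, and LRRC8A at −1.08, −0.26 and −0.27. CDKN1A stood at −0.31 as deposited, but at 0.57 with median-ratio scaling and 0.58 per nuclear reads, and GRB2, IRF3, QSOX1 and CCND1 also turned positive under both scalings. MYC, under FPKM 1 in both IP libraries, stood at 3.58 (1.93 to 5.92).

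The change in enrichment is the log2 ratio of IP over input in lactate cells less the same ratio in vehicle cells. MYC was the only message of the 8 past 2-fold on the FPKM + 1 scale, at 1.56. It entered only through the vehicle input, where it is high, a filter that favours a positive change, so nothing is read from its place among all genes. Of the 9445 genes, 3.04% passed 2-fold upward and 9.56% downward, and 0 of the messages passed it downward. The median over the messages was −0.37, against −0.36 over all genes. Without a pseudocount the difference for MYC was 6.27 (95% interval 4.36 to 8.18). The intervals of this difference are normal approximations, and that of MYC rests on 3 reads in the vehicle IP. Its half-width of 1.91 is below the 1.94 of the exact interval of the vehicle ratio alone, so it is too narrow. The difference was −1.21 for LRRC8A (−1.92 to −0.50), −0.82 for HDGF (−1.04 to −0.59) and −0.54 for CCND1 (−0.75 to −0.33), intervals that lie below 0. For GRB2 it was −0.02 (−0.36 to 0.32), for QSOX1 0.26 (−0.36 to 0.87) and for IRF3 −0.64 (−1.37 to 0.10), intervals that span 0. CDKN1A was higher at 0.60 (0.03 to 1.18). These differences moved with the scaling. On the FPKM + 1 scale, CCND1 stood at −0.52 as deposited, 0.01 with median-ratio scaling and 0.03 per nuclear reads, HDGF at −0.81, −0.27 and −0.25, and LRRC8A at −0.99, −0.38 and −0.37. GRB2, IRF3 and QSOX1, negative as deposited on this scale, turned positive under both scalings, with values between 0.11 and 0.43. These comparisons share libraries, and the intervals leave out any spread between cultures.

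Peaks were called by the authors for each IP against its own input, and the fold enrichment and q-value of each peak are theirs. A peak is counted as called here at q under 0.05 and a fold of at least 2. Of the 28 regions of the messages in the lactate list 18 were called (64.3%), beside 42.1% of the whole list, and of the 46 in the vehicle list 27 were called (58.7%), beside 47.8%. All of the messages but MYC had a called peak in each list. Over 7412 protein-coding genes at FPKM of at least 1, 63.5% had a called peak in the lactate list and 81.0% in the vehicle list. A called peak in the 3′ UTR was present for 6 messages in each list, beside 33.6% of those genes in the lactate list and 45.9% in the vehicle list. Of all the regions of the messages, 39.3% in the lactate list and 17.4% in the vehicle list lay in a 3′ UTR, beside 15.4% and 12.9% of the whole lists.

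Most of the messages had a called peak near their 3′ end. The summit nearest to the 3′ end of the RefSeq gene was 199 bp away for HDGF in the lactate list and 197 bp in the vehicle list, 154 and 154 bp for GRB2, and 87 and 106 bp for IRF3. It was 208 and 118 bp away for LRRC8A, 181 and 156 bp for CCND1, and 155 and 141 bp for CDKN1A. For those 6 messages a called summit thus lay within 500 bp of the end in each list, beside 33.4% of the genes that had a called peak in the lactate list and 40.2% in the vehicle list, a limit chosen after the distances were seen. QSOX1 differed, with its nearest called summit 3857 bp from the end in the lactate list and 3865 bp in the vehicle list.

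The strongest region of the growth factor HDGF was its 3′ UTR peak, at chr1:156742130-156742893 in the lactate list with a fold of 2.54 and at chr1:156742047-156742906 in the vehicle list with a fold of 4.71 (GRCh38, minus strand). This end of HDGF overlaps MRPL24, a mitochondrial ribosomal protein gene also on the minus strand, which RefSeq places up to position 156742716, and the summits lie within it. MRPL24 had FPKM 6.99 in the lactate IP, 5.81 in the lactate input, 18.97 in the vehicle IP and 10.8 in the vehicle input. Reads of the peak cannot be assigned to HDGF alone.

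GRB2 had 14 regions in the lactate list and 19 in the vehicle list, of which 11 and 15 lay in introns. Its strongest region was at chr17:75319400-75319973 in the 3′ UTR in the lactate list, with a fold of 11.1, and at chr17:75319392-75320564, annotated as an exon, in the vehicle list, with a fold of 12.6. All of the 4 called intron peaks of the messages in the lactate list and 9 of the 10 in the vehicle list belonged to GRB2. It was the only message of the 8 with called intron peaks in both lists, and LRRC8A had the remaining one.

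IRF3 had 3 called peaks in the lactate list and 4 in the vehicle list, in exons and the 5′ UTR. In the lactate list their folds were 4.15 at chr19:49659466-49659880 by the 3′ end, 9.44 at chr19:49661792-49662130 in an exon and 3.73 at chr19:49665380-49665809 in the 5′ UTR. The strongest of the vehicle list, at chr19:49661809-49662174, had a fold of 8.35 and overlaps the strongest of the lactate list. The 5′ UTR region lies where IRF3 overlaps BCL2L12, an apoptosis-related gene on the other strand, which had FPKM 1.21 in the lactate IP, 0.853 in the lactate input, 2.38 in the vehicle IP and 0.961 in the vehicle input. The sources used here do not give whether reads were counted by strand.

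LRRC8A had the highest fold of all the messages in each list. It was 13.4 at chr9:128916552-128917138, in the 3′ UTR, in the lactate list and 21.6 at chr9:128916357-128917178, annotated as an exon, in the vehicle list. A further lactate peak by the end of the gene, at chr9:128917771-128918022, had a fold of 5.37. QSOX1 had its called peaks inside a long 3′ UTR, and the strongest had a fold of 7.17 at chr1:180200013-180200315 in the lactate list and 15.9 at chr1:180199827-180200356 in the vehicle list.

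CCND1 had 2 called peaks in the lactate list, with folds of 3.25 at chr11:69651117-69651686 in an exon and 4.30 at chr11:69654169-69654510 in the 3′ UTR. Its strongest vehicle peak, at chr11:69651047-69651772 in the same exon, had a fold of 5.15. CDKN1A had a single called peak in each list, in the 3′ UTR, with a fold of 3.28 at chr6:36686995-36687357 in the lactate list and 3.32 at chr6:36686958-36687328 in the vehicle list. MYC had 1 region, in an exon on chromosome 8, in the lactate list, with a fold of 2.21 and a q-value of 1.0, and none in the vehicle list.

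**Figure D3:**
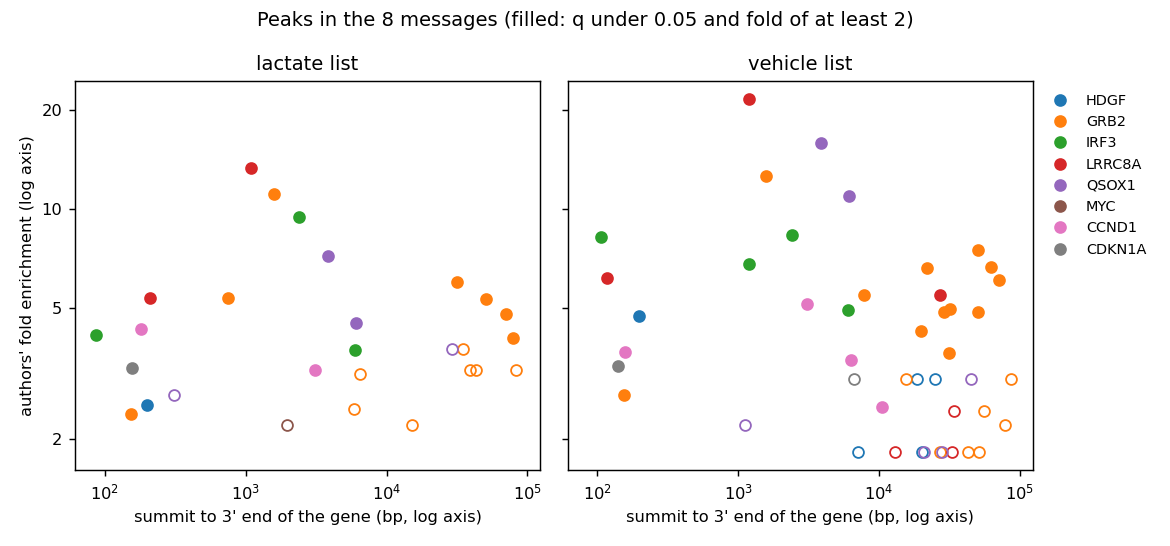
Each region of the 8 messages by the distance of its summit from the 3′ end of the RefSeq gene (bp, log axis) and the authors' fold enrichment (log axis), in the lactate list (left) and the vehicle list (right). Filled points are called peaks. LRRC8A is highest in each list, at 13.4 and 21.6, and 6 messages have a filled point within 500 bp.

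The authors' deposited table that compares the IP libraries gives M, the log2 ratio of normalized read density in the lactate IP over the vehicle IP. In the authors' deposited table, the 55 regions of the messages had a median M of 0.06, against −0.50 over all 116484 regions. An M of at least 1 was listed for 7 of the 55, beside 13.9% of all regions, and an M of at most −1 for 14, beside 38.6%. Regions found in one list only were selected for being high there, so their M leans to that list, and the 18 regions present in both lists are given on their own. In the authors' deposited table these 18 had M between −1.03 and 1.009 and a median of 0.16, against 0.00 over 26381 such regions. GRB2 alone had 14 of the 28 regions of the lactate list and 19 of the 46 of the vehicle list. These medians and counts therefore weigh GRB2 more than any other message.

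Single regions show how this scale differs from FPKM. In the authors' deposited table, the HDGF 3′ UTR region had a density of 458 in the lactate IP and 415 in the vehicle IP (M 0.14), whereas the FPKM of HDGF was 16.2 and 37.6. That region overlaps MRPL24, so its density cannot be assigned to HDGF alone. The CCND1 exon region had densities of 359 and 238 (M 0.59), and the CDKN1A 3′ UTR region 62.0 and 47.9 (M 0.37), in the authors' deposited table. The LRRC8A region by the 3′ end was lower with lactate there, at 38.9 and 64.1 (M −0.72), as was the stronger QSOX1 region by fold, at 9.90 and 20.2 (M −1.03). The other QSOX1 region called in both lists was denser and went the other way, at 134.7 and 108.2 (M 0.32). In the authors' deposited table the MYC region had a density of 12.1 in the lactate IP and 1.43 in the vehicle IP (M 3.08), the highest M among the 55. It was found in the lactate list only and was not called, so its M leans to the lactate IP by selection. At the regions named here, LRRC8A thus had the same sign in both measures. HDGF, CCND1 and CDKN1A did not for FPKM as deposited, although CCND1 and CDKN1A did under either other scaling of FPKM. CCND1 also had called regions in the vehicle list only, with M −2.91 and −0.90, which lean to the vehicle IP by selection. GRB2, IRF3 and QSOX1 had regions of both signs among those present in both lists and were left out of this tally. MYC also had the same sign in both measures, but that of its region was favoured by selection, so nothing is read from it.

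**Figure D4:**
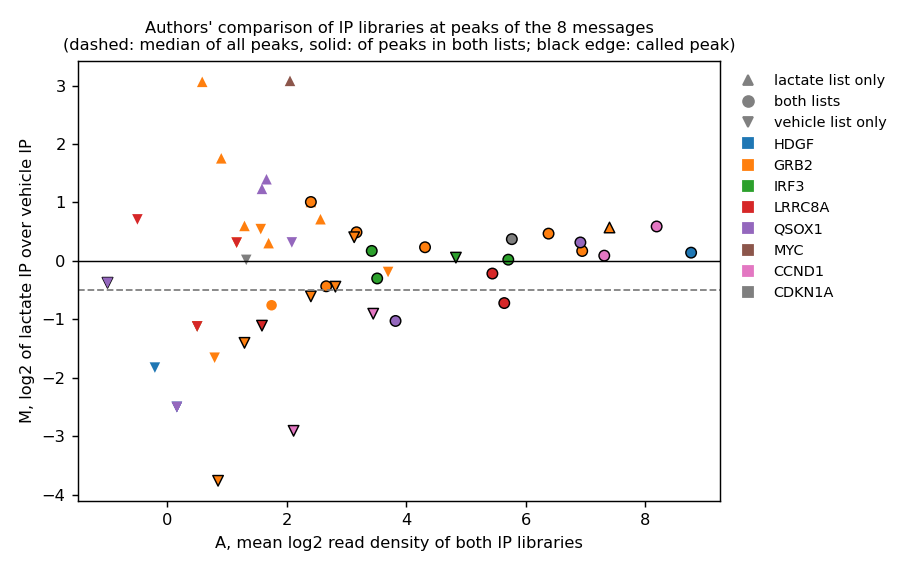
M, the log2 ratio of the lactate IP over the vehicle IP, against A, the mean log2 density, at the 55 regions of the 8 messages in the authors' deposited table. Triangles mark regions of one list and circles the 18 of both lists, which lie between −1.03 and 1.009. Some points coincide. Lines give the median of all regions (−0.50) and of those in both lists (0.00).

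Of 21 further RNAs described in earlier work as NSUN2 substrates, 17 had a row in the table, and TREX1, KRT13, IL17A and RPPH1 were not analysed here. In lactate cells 12 entered the comparison of IP with input, of which 2 were at least 2-fold higher (PCYT1A and PKM) and 3 at least 2-fold lower (CDK1, NFE2L2 and SLC7A11), beside 16.0% and 23.3% of all genes. Their median log2 ratio was 0.37, against −0.10 over all genes. In vehicle cells 14 entered, 5 were higher (VTRNA1-1, PCYT1A, GPX4, PKM and ENO1) and 3 lower (CDK1, CDKN1B and SLC7A11), beside 27.6% and 15.3% of all genes, with a median of 0.64 against 0.44. The lactate shares are near those of all genes. In lactate cells PCYT1A and SHC1 entered only through the IP. In vehicle cells VTRNA1-1, ICAM1 and FOXC2-AS1 entered only through the IP, and CDKN1B only through the input. The direction of these in those cells was fixed by the filter, and the counts and medians that include them are a description.

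PCYT1A, the rate-limiting enzyme of phosphatidylcholine synthesis, had a log2 ratio of FPKM + 1 of 1.69 in lactate cells and 1.67 in vehicle cells. PKM and ENO1, which are glycolytic enzymes, stood at 1.17 and 0.96 in lactate cells and at 1.35 and 1.32 in vehicle cells. GPX4, which protects lipids from peroxidation, stood at 0.58 and 1.40. CDK1, the mitotic kinase, was lower in the IP at −2.87 in lactate cells and −1.88 in vehicle cells, and SLC7A11, a cystine transporter, at −1.02 and −1.06. Single regions of RNAs that were lower as a whole could still stand above input. In the lactate and vehicle lists CDK1 had 0 and 3 called peaks, SLC7A11 2 and 3, and NFE2L2 7 and 17, while CDKN1B had 0 in each. VTRNA1-1, a vault RNA, rests on few reads, and its interval without a pseudocount ran from −0.36 to 1.64 in lactate cells and from 0.22 to 8.67 in vehicle cells. SHC1, ICAM1, CDKN1C, H19 and FOXC2-AS1 entered at least 1 of these comparisons and were within 2-fold, and PIK3R1, TIAM2 and FABP5 entered neither. A called peak was listed for 10 of the 17 in the lactate list and 14 of the 17 in the vehicle list. The shares were 63.5% and 81.0% of protein-coding genes at FPKM of at least 1, which is an unlike set. Of the 17, H19, FOXC2-AS1 and VTRNA1-1 are noncoding, and PIK3R1, TIAM2 and FABP5 were under FPKM 1 in every library. Nothing is therefore read from how near these shares lie.

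**Figure D5:**
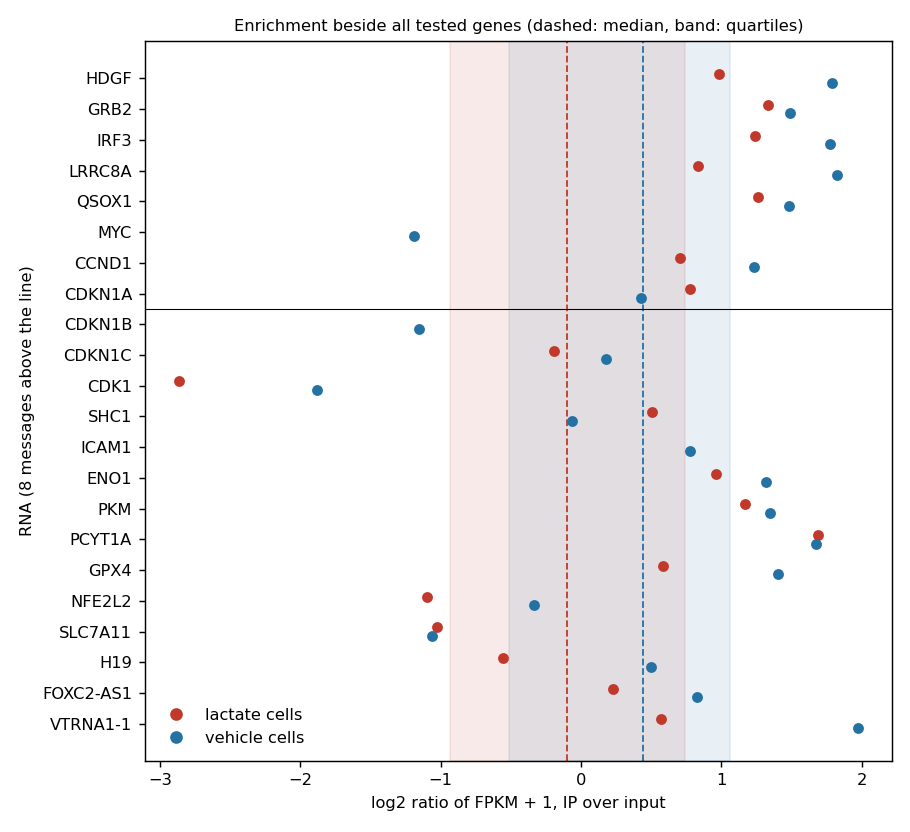
Log2 ratio of FPKM + 1 in the IP over its input for the 8 messages (above the line) and the further RNAs that entered a comparison, in lactate and vehicle cells. Dashed lines are the medians over all genes (−0.10 and 0.44) and bands their quartiles.

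The enzyme's own message and those of m5C readers were measured in the same libraries. NSUN2 had FPKM 1.22 in the lactate IP and 1.85 in the lactate input, and 3.04 in the vehicle IP and 3.39 in the vehicle input. Its input log2 ratio of lactate over vehicle was −0.62 on the FPKM + 1 scale, against the median of −0.43. ALYREF had FPKM 1.62 in the lactate IP and 1.30 in the lactate input, and 4.13 in the vehicle IP and 2.01 in the vehicle input. YBX1 had FPKM 19.6 and 54.3 in the lactate IP and input, and 35.5 and 83.4 in the vehicle IP and input, so that its message was lower in each IP.

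The genes with the most similar pattern over the 4 libraries were sought among 3394 protein-coding genes at FPKM of at least 1 in each, by Euclidean distance between profiles of log2(FPKM + 1) centred on their mean. MYO10, a motor protein of filopodia, was nearest to HDGF at a distance of 0.0049, RBFOX2, a splicing regulator, to GRB2 at 0.0299, and SDF4 to CCND1 at 0.0389. TOMM34 was nearest to QSOX1 at 0.0409, CHD6, a chromatin remodeller, to IRF3 at 0.0592, and the kinase ULK3 to LRRC8A at 0.0715. MZT2A was nearest to CDKN1A at 0.133. The nearest gene to MYC, OSTF1, was at 0.341, the largest of these distances. MYC itself reached FPKM 1 only in the vehicle input, and IRF3, LRRC8A and QSOX1 reached it only in the IP libraries. These messages would not pass the filter set for the compared genes. Genes as low as they are in the other libraries were left out, so nothing is read from their distances or nearest genes. GPATCH8, PRPF4 and FIBP were the nearest to the median profile of the 8, which includes those messages.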

How the data were processed

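The members and gene lists were chosen with earlier results of these data known. Gene values were deposited by the authors as FPKM. The submitters' processing notes name DiffBind, HOMER 4.11.1, bedtools 2.29.2, MACS2 2.2.7.1, HISAT2 2.1.0 and fastp 0.20.1, and GRCh38. Which program counted genes, with what annotation and strand setting, is not stated in them. Per the file headers, each deposited peak list gives a fold enrichment (a ratio), p-value, q-value and −log10 of each, with 1-based positions, and the authors' comparison of the IP libraries gives densities (signal), log2 M and A. Its P column never exceeds 0.25 and was not used. Vehicle libraries are those labelled nc, taken as the vehicle because the other arm is lactate.

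Whole reads were recovered from the low values of the FPKM table (100.0% of 72387 values above 0 within 0.001 reads); where 4 read counts share a divisor it is lost, which would widen the interval of that gene. Intervals are exact conditional binomial intervals on reads (Poisson for a level, normal for the change in enrichment), and cover counting error only, since no molecular identifiers were used. Log2 ratios used a pseudocount of 1 and a filter of FPKM 1, and 2-fold as the threshold, in 5 comparisons. Scripts were tested on simulated data. Named are the 8 messages, the 21 further RNAs (1 other item of that list is not reported here), NSUN2 and its readers, the nearest gene to each message, and the strongest peak of each message with others where it has 3 or fewer. Python 3.11.15, numpy 2.4.6, pandas 2.3.3, scipy 1.17.1 and matplotlib 3.10.9 were used.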

Additional observations from a re-analysis of the deposited data

Results flagged for a closer look

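MYC moved in opposite directions under the same contrast. Its log2 ratio of IP over input, without a pseudocount, was 1.42 in lactate cells and −4.85 in vehicle cells, on 40 and 11 reads in the lactate IP and input and 3 and 112 reads in the vehicle IP and input. H19, a long noncoding RNA among the further substrates, did the reverse, at −0.85 in lactate cells and 0.67 in vehicle cells. On the FPKM + 1 scale the median over all genes had the same signs as H19, at −0.10 in lactate cells and 0.44 in vehicle cells. H19 stood above 36.6% of genes in lactate cells and 51.9% in vehicle cells. With 1 library per group neither difference was tested.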

How the results depend on the processing

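No paired analysis was possible because each group holds 1 library, and no replicate could be left out. No count or log2 ratio of the messages past 2-fold turned its sign under the settings tried. With a pseudocount of 0.1, 1 message passed 2-fold downward in the inputs, 6 were higher in the lactate IP over its input, and 1 was lower in the change of enrichment. With a pseudocount of 5, 0 messages were higher in the lactate IP over input, 2 were higher and 0 lower in the vehicle IP over input, 1 was lower between the IP libraries, and 0 were higher in the change of enrichment. With a filter of FPKM 5, those counts were 1 higher (lactate), 3 higher and 0 lower (vehicle), 1 lower (IP libraries) and 0 higher (change). With median-ratio scaling, 6 messages were higher in the lactate IP over input, 5 in the vehicle IP over input (CCND1 at 0.96 no longer passed) and 0 were lower between the IP libraries. With totals of nuclear reads, 7 were higher in the lactate IP over input, 0 lower in the vehicle IP over input and 0 lower between the IP libraries. The cause was not tested beyond the construction of each setting. Within 2-fold, both scalings put HDGF (0.18 and 0.16) and CCND1 (0.31 and 0.29) above 0 in the input comparison, and GRB2, IRF3, QSOX1, CCND1 and CDKN1A between 0.23 and 0.58 in the IP comparison. Both also put GRB2, IRF3, QSOX1 and CCND1 above 0 in the change of enrichment.

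Over all genes, the share of 2-fold calls that were higher was 21.4% as deposited, 56.5% with median-ratio scaling and 59.0% with nuclear totals in the inputs. It was 40.6%, 53.6% and 65.4% for lactate IP over input, 64.3%, 50.3% and 64.5% for vehicle IP over input, 5.58%, 54.9% and 52.7% between the IP libraries, and 24.1%, 54.3% and 54.0% for the change in enrichment. Median-ratio scaling moved the median of all genes to 0.00 in the inputs, 0.10 and 0.24 in lactate and vehicle IP over input, 0.01 between the IP libraries and 0.02 for the change. The counts of all genes higher ran from 9 (pseudocount 5) to 171 in the inputs, 110 to 2282 for lactate IP over input, 556 to 3786 for vehicle IP over input, 5 to 298 between the IP libraries and 18 to 598 for the change. The counts lower ran from 67 to 1134, 593 to 2351, 569 to 1879, 229 to 4552 and 99 to 2100 in the same order.

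The 28 lactate and 46 vehicle regions became 18 and 27 at q under 0.05 and a fold of at least 2, and 17 and 26 at q under 0.01. The median M of the messages was 0.17 at regions with A of at least the median and 0.55 after taking off the median of all regions. The limits of 250 and 1000 bp on the distance to the 3′ end, chosen after seeing the data, each kept 6 messages in each list. Depth limits MYC, with 3 reads in the vehicle IP, and VTRNA1-1 and FOXC2-AS1, with 1 and 2 reads in the vehicle input.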
